A study of Mus musculus with 13 samples.

Results

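Footprints of 10 genes were followed, each listed by its symbol, with earlier results of these data known: the calcium pumps Atp2a2, Atp2c1, Atp2b1 and Atp2b4, the IP3 receptors Itpr1, Itpr2 and Itpr3, the store sensors Stim1 and Stim2, and the entry channel Orai1. They are 10 of the 22406 gene symbols in the tables, and all 10 were found in every library. Ribosome footprints, the stretches of mRNA that translating ribosomes protect, were sequenced from 13 libraries of mouse fibroblasts. They held 5 of WT MEFs (mouse embryonic fibroblasts with intact PERK), as a control and after 1, 2, 5 and 8 h of 1 µM thapsigargin (Tg), and 5 of PERK -/- MEFs under the same conditions. Another 3 were of WT NIH3T3 cells, an established mouse fibroblast line, as a control and after 2 and 7 h of 200 nM Tg. Each condition was 1 library, and differences were therefore not tested. Whether the MEFs of a genotype came from 1 line or several, and what the controls received in place of Tg, was not given in the sources used here.

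Calcium is pumped from the cytosol into the endoplasmic reticulum (ER) by SERCA pumps, of which Atp2a2 encodes the widely expressed SERCA2, and Tg blocks these pumps. Calcium then leaks out of the ER without being returned, and ER-resident chaperones, which need calcium, work poorly. IP3 receptors are the channels that release ER calcium on a signal. When the store empties, the ER membrane proteins STIM1 and STIM2 sense the low lumenal calcium and open ORAI1 in the plasma membrane, which lets calcium in to refill the store. PERK, encoded by Eif2ak3, is an ER stress kinase that phosphorylates eIF2α and thereby lowers translation initiation.

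The total of expected counts per library ran from 2525029 (WT at 2 h) to 14799515 (PERK -/- at 2 h), so that 3 counts were worth between 0.203 and 1.19 CPM (counts scaled to the same library total). Levels are given as TPM, a measure per coding length that is a share of the library, and a change therefore means a gain or loss relative to the other genes. Eif2ak3, the gene deleted in PERK -/- MEFs, had 21.3, 14.4, 19.0, 33.3 and 32.7 CPM in WT MEFs at control, 1, 2, 5 and 8 h, and 11.0, 8.99, 7.64, 13.2 and 19.1 CPM in PERK -/- MEFs. It was lower in PERK -/- than in WT MEFs in CPM at each time, though not at 0, but in TPM PERK -/- exceeded WT in 3 of 5 pairs, with 11.2 against 6.03 TPM untreated, 14.9 against 14.0 after 5 h and 17.2 against 15.7 after 8 h. Counts over a whole gene do not show which part was deleted, so they are a weak check of the genotype. In NIH3T3 cells it had 34.6, 25.7 and 49.7 CPM at control, 2 and 7 h. All 8 fibroblast markers were expressed in MEFs, with a summed level of 5440 to 6324 TPM in WT and 4138 to 6645 TPM in PERK -/- libraries. Of the 8 markers, 5 (Col1a1, Col1a2, Col3a1, Fn1 and Pdgfrb) were at least 2-fold lower at some time of Tg in PERK -/- MEFs, against 0 in WT MEFs. By the same rule, described below, 10.6% of all expressed genes were lower in PERK -/- and 6.64% in WT MEFs. In NIH3T3 cells the sum was 3455 to 4948 TPM, with Col3a1 at most 1.67 TPM. There 3 of 7 expressed markers were at least 2-fold lower at some time, beside 9.72% of all expressed genes. The 6 markers of other cells summed to 0.78 to 4.92 TPM in MEFs and 3.59 to 10.7 TPM in NIH3T3 cells, where Des reached 7.39 TPM, while Pecam1 was at 0 in all 10 MEF libraries. The part of these differences in the results was not tested.

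Several of these genes have close relatives, and the stretches of coding sequence they share set how far a footprint of 22 to 34 nt can be given to 1 gene. For each family whose members are compared with each other, 1 pair or set is shown. Its longest shared run was read from the GENCODE coding sequences of GRCm38, and another relative can share a longer one.
Atp2a2 with Atp2a1 and with Atp2a3, 44 nt: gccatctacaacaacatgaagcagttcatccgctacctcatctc
Itpr2 with Itpr3, 32 nt: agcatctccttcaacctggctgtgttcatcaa
Atp2b1 with Atp2b4, 26 nt: atgatgaagaacatcttgggccatgc
Stim1 with Stim2, 15 nt: ggagctgagggaggg
A footprint of any length in the 22 to 34 nt range could thus lie whole inside the SERCA run, and none could lie inside the run of the STIM sensors. Of all 28-nt windows of the Atp2a2 coding sequence outside the clipped ends, 17 of 3045 (0.558%) also occurred in another gene, the highest share among the 10 genes. The shares were 0.224% for Atp2b1 (with Atp2b3, a pair not shown), 0.0368% for Itpr1, 0.0749% for Itpr2 and 0.0884% for Itpr3. For Atp2c1, Atp2b4, Stim1, Stim2 and Orai1 the share was 0. Neither relative of Atp2a2 that holds the run, the muscle pump gene Atp2a1 nor Atp2a3, was expressed in these cells by the limit used below.

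From here, a gene was counted as expressed when its mean was at least 2 TPM over the libraries of its table, which left 10432 genes in MEFs and 10117 in NIH3T3 cells. Of the 10 genes, 9 passed in each, and only Itpr2 did not. In MEFs Atp2b4 passed only through the PERK -/- libraries. Values under 4 TPM were raised to 4, each Tg library was divided by its own control, and a change of 2-fold or more was called. A gene with a control near or under 4 TPM could thus not be called lower, but it stays in every percentage of expressed genes given. Among the 9 this held for Itpr1 and Atp2b4, and in NIH3T3 cells for Stim1. Counting error is given as the exact 95% interval of the log2 change in expected counts per library total, which holds no error between cultures or libraries. As a yardstick in place of replicates, the log2 ratios of all expressed genes had an SD of 0.46 between the WT libraries of 1 and 2 h and 0.19 between those of 5 and 8 h. For the PERK -/- libraries the same SDs were 0.30 and 0.54.

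In WT MEFs, 4 of the 9 expressed genes were at least 2-fold lower at all 4 times of Tg, which held for 0.796% of all expressed genes. They were the Golgi pump gene Atp2c1, the plasma membrane pump gene Atp2b1, and both sensor genes, Stim1 and Stim2. With counts per library total or with a pseudocount, 3 were lower at all 4 times (without Stim1), and with the GC trend removed 2 were (Stim1 and Stim2). The libraries are whole cultures without replicates or matched RNA, so a change in mRNA, in translation per mRNA or in the mix of cells cannot be told apart. No further gene of the 10 was called at any single time in WT, where the background of genes at least 2-fold lower at 1 or more times was 6.64%. In PERK -/- MEFs only Stim2 was at least 2-fold lower, and it was so at all 4 times (background 0.422% at all times and 10.6% at 1 or more). A total of 6 genes, 0.0575% of those expressed, were at least 2-fold lower at all 4 times in both genotypes, and Stim2 was among them. In NIH3T3 cells Atp2c1 alone was called lower, at both times (background 2.1% at both and 9.72% at 1 or more). None of the 9 was at least 2-fold higher in any comparison, while 10.7% of the expressed genes were so at 1 or more times in WT MEFs, 6.25% in PERK -/- MEFs and 10.5% in NIH3T3 cells. At a limit of 1.5-fold at 1 or more times, 5 were lower in WT (Atp2a2 added, background 19.8%), 4 in PERK -/- MEFs (Itpr3, Orai1, Stim1 and Stim2, 30.3%) and 3 in NIH3T3 cells (28.2%). Orai1 was the 1 gene higher by that limit in WT (27.5%) and in PERK -/- MEFs (21.7%), and 0 were higher in NIH3T3 cells (22.8%). The WT call, at 8 h, was lost with the GC trend removed (log2 change 0.16), and the PERK -/- call, at 8 h, was lost in counts (0.36).

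**Figure D1:**
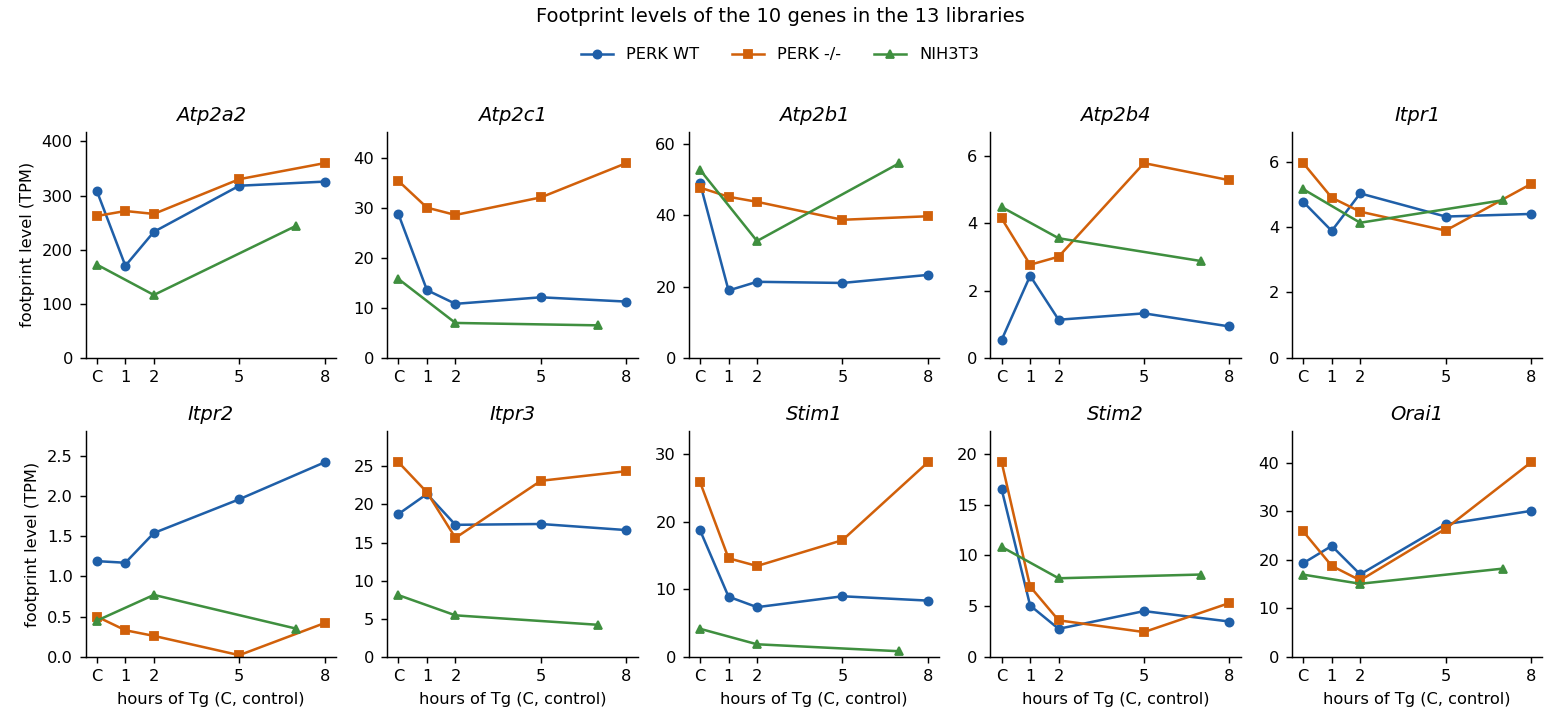
Footprint level (TPM, linear axis from 0, a separate scale for each gene) against hours of Tg (C, control) for the 10 genes, with 1 point per library, circles for WT MEFs, squares for PERK -/- MEFs and triangles for NIH3T3 cells. Atp2b1 and Atp2c1 stood apart by genotype after Tg, a split whose share over all expressed genes was not counted. For Atp2b1, WT was at 18.9 to 23.3 TPM and PERK -/- at 38.8 to 45.3 TPM. Stim2 was low after Tg in both genotypes, at 2.44 to 6.93 TPM.

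In the WT control the SERCA2 gene had 308 TPM, followed by Atp2b1 at 49.0 and Atp2c1 at 28.7 TPM. Orai1 (19.3 TPM), Itpr3 (18.7), Stim1 (18.7) and Stim2 (16.5) came next and lay too close to be put in order with 1 library. Itpr1 (4.78 TPM), Itpr2 (1.19) and Atp2b4 (0.53) were the lowest. The order of the first 3 was the same in the PERK -/- control, at 262, 47.8 and 35.4 TPM. In the NIH3T3 control Atp2a2 (172 TPM) and Atp2b1 (52.8) again led, Orai1 (17.0), Atp2c1 (15.8), Stim2 (10.9) and Itpr3 (8.09) followed, and Itpr1 (5.17), Atp2b4 (4.49) and Stim1 (4.14) lay close to each other. Itpr2 was last there at 0.45 TPM.

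Atp2a2 (SERCA2, chr5:122453513-122502225, mm10) encodes the target of the drug. WT MEFs had 308, 170, 233, 318 and 326 TPM at control, 1, 2, 5 and 8 h. Its level was thus lowest at 1 h and close to the control at 5 and 8 h. In counts the log2 change was -0.84 at 1 h (-0.91 to -0.78, from 12145 and 2043 counts) and -0.40 at 2 h (-0.47 to -0.33), short of the 2-fold call at both times. At 5 and 8 h the log2 changes of 0.05 and 0.08 became -0.04 and -0.02 under TMM scaling and -0.04 and -0.03 with DESeq2 size factors, so they have no settled direction. PERK -/- MEFs had 262 TPM untreated and 271, 266, 330 and 360 TPM with Tg. No PERK -/- Tg library was below its control, and the highest, at 8 h, had a log2 change in counts of 0.45 (0.40 to 0.50). The value at 2 h, 0.02, turned to -0.04 when a trend with GC content was removed. NIH3T3 cells had 172, 116 and 244 TPM at control, 2 and 7 h, with log2 changes in counts of -0.45 (-0.54 to -0.36) and 0.51 (0.45 to 0.56). The early low level and the later return were present in both WT fibroblast types, at different doses of Tg. The PERK -/- minus WT difference of the log2 changes in counts was 0.93 (0.84 to 1.01), 0.50 (0.41 to 0.58), 0.32 (0.26 to 0.39) and 0.37 (0.31 to 0.43) in time order. These intervals lay above 0 at each time. At 1 h the difference was larger than the neighbour SDs of the early times, and at 2 h (0.50) it was close to that of WT (0.46). At 5 and 8 h the differences were smaller than the SD of PERK -/- MEFs (0.54). An SD is of 1 ratio of 2 libraries, while a genotype difference uses 4 libraries, so the SDs are too small a yardstick for it. Atp2a2 stayed among the most footprinted genes throughout, with 539 to 973 genes above it in WT, 564 to 708 in PERK -/- and 735 to 1329 in NIH3T3 libraries.

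Atp2c1 (SPCA1, chr9:105411362-105521257) encodes the pump that loads the Golgi with calcium and manganese. In WT MEFs it had 28.7 TPM in the control, then 13.5, 10.8, 12.1 and 11.2 at 1, 2, 5 and 8 h. PERK -/- MEFs had 35.4 TPM, then 30.1, 28.6, 32.1 and 39.0. All 4 WT Tg libraries were below the lowest PERK -/- library, while the WT control (28.7 TPM) was marginally above it. The share of all expressed genes with such a split after Tg was not counted. The WT log2 changes were -1.09, -1.41, -1.25 and -1.35, or 2.12- to 2.66-fold lower, with intervals in counts that reached no higher than -0.84. Those of PERK -/- MEFs were -0.24, -0.31, -0.14 and 0.14. In counts, PERK -/- exceeded WT by 0.89 (0.60 to 1.18), 1.20 (0.84 to 1.55), 1.12 (0.86 to 1.39) and 1.51 (1.28 to 1.74) on the log2 scale at 1, 2, 5 and 8 h. Each was more than the neighbour SDs, which are of 1 ratio and so too small a yardstick for a difference of 2 ratios. NIH3T3 cells had 15.8, 6.95 and 6.47 TPM at control, 2 and 7 h, which is 2.27- and 2.43-fold lower than the control. The level was therefore low after Tg in both WT fibroblast types. The WT call at 1 h was at the edge, and with the GC trend removed its log2 change was -0.93.

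Atp2b1 (PMCA1, chr10:98914630-99026143) encodes the common plasma membrane pump, which moves calcium out of the cell. WT MEFs had 49.0 TPM in the control and 18.9, 21.3, 21.01 and 23.3 after 1, 2, 5 and 8 h. Without PERK the levels were 47.8 TPM and then 45.3, 43.8, 38.8 and 39.8. The controls of the genotypes were alike (log2 difference in counts -0.04, interval -0.14 to 0.06), and all WT Tg libraries lay below all PERK -/- ones. How many of all expressed genes split in this way was not counted. At 1 h the WT log2 change was -1.38 by TPM and -1.36 in counts (-1.55 to -1.18), which placed it at the 0.479th percentile of the changes of all expressed genes. It was -1.20, -1.22 and -1.07 at 2, 5 and 8 h, the last being -0.85 with the GC trend removed. The PERK -/- changes were -0.08 and -0.13 at 1 and 2 h, with signs that turned positive under TMM scaling. At the later times they were -0.30 and -0.27. In counts, PERK -/- exceeded WT by 1.31 (1.10 to 1.52), 1.15 (0.92 to 1.37), 0.96 (0.77 to 1.14) and 0.80 (0.64 to 0.96) at the 4 times. In NIH3T3 cells the level was 52.8, 32.8 and 54.7 TPM at control, 2 and 7 h. There the lower level was seen at 2 h (log2 change -0.69, in counts -0.57 with an interval of -0.73 to -0.41) and not at 7 h (0.05).

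Atp2b4 (PMCA4, chr1:133702674-133801059), a second plasma membrane pump, was measured on few footprints. WT MEFs had 0.53, 2.44, 1.13, 1.32 and 0.93 TPM at control, 1, 2, 5 and 8 h, from 24, 34, 11, 28 and 39 counts. PERK -/- MEFs had 4.15, 2.77, 3.01, 5.80 and 5.29 TPM, from 107 to 180 counts. Every PERK -/- library was above every WT library, which was so for 9.09% of the expressed genes and for no other of the 9. The gene met the limit of a mean of 2 TPM only through the PERK -/- libraries, where it was higher. The split is therefore tied to that filter and is a description only. None of the 9 had all WT libraries above all PERK -/- ones, as 5.53% of the expressed genes did. All WT values were under the 4 TPM floor, so no change was called by TPM. In counts the WT log2 changes were 2.23 (1.43 to 3.05), 1.12 (-0.06 to 2.20), 1.31 (0.47 to 2.16) and 0.80 (0.03 to 1.59) in time order, and only the second interval held 0. The untreated difference between the genotypes was 2.98 on the log2 scale (2.33 to 3.69). NIH3T3 cells had 4.49, 3.56 and 2.88 TPM. Atp2b1 made up 88.6 to 98.9% of the summed Atp2b1 and Atp2b4 level in WT MEFs, and 92.0% in the PERK -/- control.

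**Figure D2:**
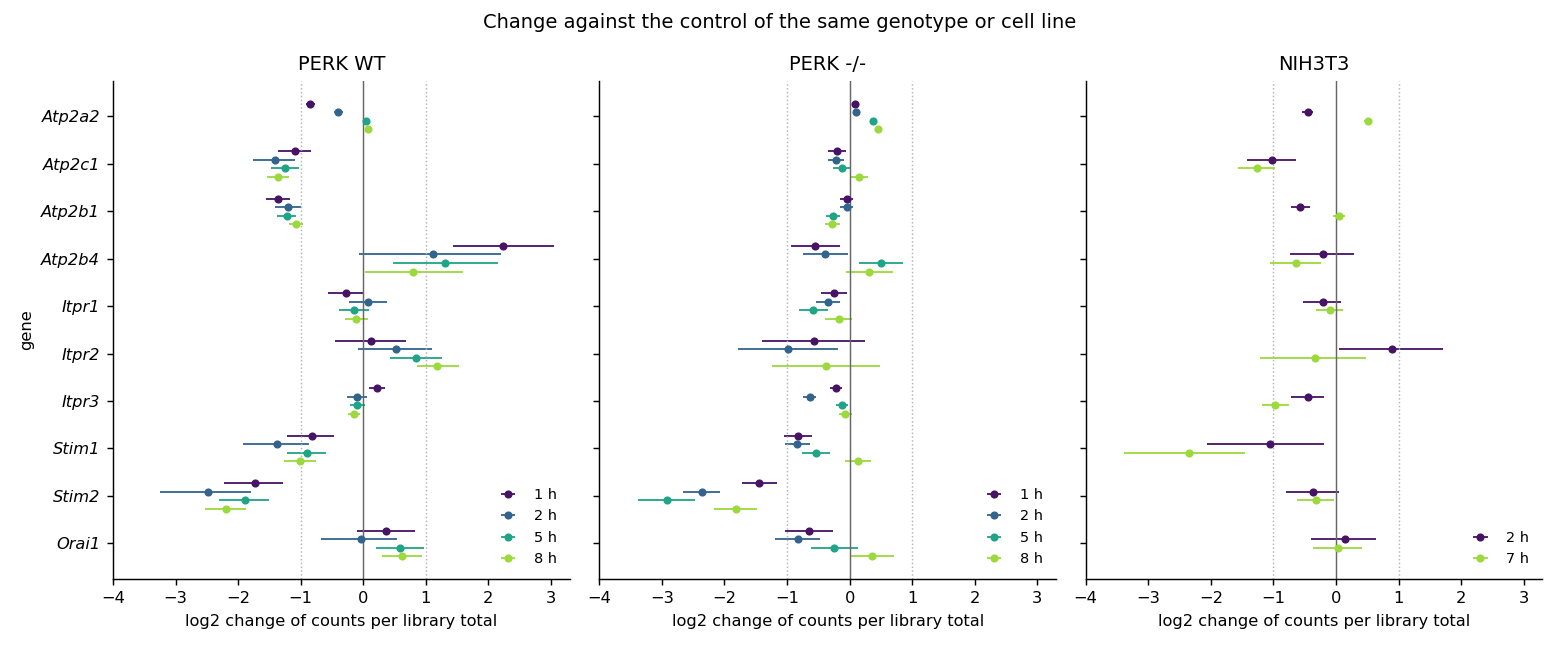
Log2 change of expected counts per library total for each gene (vertical axis) against the control of the same genotype or cell line, in separate panels for WT MEFs, PERK -/- MEFs and NIH3T3 cells, with the exact 95% counting interval as a bar and dotted lines at a 2-fold change. The points of Atp2b1, Atp2c1 and Stim2 in WT lie beyond the lower line at each time, with Stim2 at -1.74 to -2.48, and Itpr2 at 5 h in PERK -/- MEFs (1 count) is not drawn.

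The 3 IP3 receptors are large ER channels that open when IP3 binds. Itpr3 (chr17:27057002-27122223) was the most footprinted per length in 12 of the 13 libraries, NIH3T3 at 7 h being the exception. It had 18.7, 21.4, 17.3, 17.4 and 16.6 TPM in WT and 25.5, 21.6, 15.6, 23.1 and 24.4 TPM in PERK -/- MEFs at control, 1, 2, 5 and 8 h, and 8.09, 5.44 and 4.20 TPM in NIH3T3 cells at control, 2 and 7 h. The WT values lay within a narrow band, the PERK -/- value was lowest at 2 h (log2 change -0.71, in counts -0.64 with an interval of -0.74 to -0.54), and NIH3T3 cells at 7 h came close to the 2-fold limit (1.93-fold lower, in counts -0.97 with an interval of -1.18 to -0.76). Itpr1 (chr6:108213083-108551116) had 4.78, 3.89, 5.04, 4.33 and 4.41 TPM in WT, 5.97, 4.91, 4.48, 3.90 and 5.33 TPM in PERK -/- MEFs, and 5.17, 4.14 and 4.83 TPM in NIH3T3 cells. Its ranges overlapped between all 3 kinds of cells, and its WT intervals in counts held 0 at each time. Its largest PERK -/- change was -0.58 at 5 h (-0.81 to -0.35).

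Itpr2 (chr6:146108299-146502258) was under the expression limit, a mean of 2 TPM, over the MEF and over the NIH3T3 libraries, though WT MEFs at 8 h were above 2 TPM. WT MEFs had 1.19, 1.17, 1.54, 1.96 and 2.42 TPM, from 109, 36, 33, 92 and 232 counts. PERK -/- MEFs had 0.50, 0.33, 0.26, 0.02 and 0.42 TPM, from 27, 27, 30, 1 and 23 counts. All WT libraries were above all PERK -/- libraries, a statement not set against the background of expressed genes because Itpr2 was outside it. The WT log2 changes in counts were 0.84 (0.43 to 1.26) and 1.19 (0.85 to 1.53) at 5 and 8 h. The single count at 5 h in PERK -/- MEFs gave a ratio of -5.01 with an interval from -10.4 to -2.41. NIH3T3 cells had 0.45, 0.77 and 0.35 TPM, from 44, 19 and 18 counts.

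Within the family, Itpr3 held 70.9 to 85.5% of the summed TPM in the MEF libraries. In NIH3T3 cells its share was 59.0% in the control and 44.8% at 7 h, where Itpr1 was the larger. Itpr2 held 4.82% untreated and 10.3% at 8 h in WT, and 1.56% in the PERK -/- control.

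STIM1 and STIM2 are single-pass ER membrane proteins with a calcium-binding domain in the lumen, and STIM2 responds to smaller losses of store calcium than STIM1. Stim2 (chr5:53998523-54121057) had 16.5 TPM in the WT control, then 5.06, 2.76, 4.51 and 3.48 at 1, 2, 5 and 8 h. PERK -/- MEFs had 19.2 TPM, then 6.93, 3.60, 2.44 and 5.31. Every Tg library was well below both controls, and the Tg values of the genotypes overlapped. The counts were 474, 43, 18, 60 and 97 in WT and 309, 169, 132, 49 and 97 in PERK -/- MEFs. In counts the log2 changes were -1.74 (-2.22 to -1.28), -2.48 (-3.24 to -1.80), -1.89 (-2.31 to -1.503) and -2.19 (-2.52 to -1.87) in WT. Those of PERK -/- MEFs were -1.44 (-1.72 to -1.17), -2.36 (-2.67 to -2.06), -2.91 (-3.38 to -2.47) and -1.82 (-2.16 to -1.48). With the 4 TPM floor, which cuts the size of changes to lower values, Stim2 was 3.27- to 4.13-fold lower in WT and 2.77- to 4.80-fold lower in PERK -/- MEFs, within the lowest 0.7% of the changes of all expressed genes at each time. The PERK -/- minus WT difference had an interval that held 0 at 1 h (-0.23 to 0.82), 2 h (-0.63 to 0.85) and 8 h (-0.08 to 0.83), and was -1.02 (-1.60 to -0.44) at 5 h. In NIH3T3 cells Stim2 had 10.9, 7.75 and 8.12 TPM, with changes in counts of -0.36 (-0.80 to 0.05) at 2 h and -0.32 (-0.63 to -0.03) at 7 h. No 2-fold change was seen there, at a dose of Tg that differed from that of the MEFs.

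Stim1 (chr7:102261514-102437319) had 18.7 TPM in the WT control and 8.89, 7.34, 8.95 and 8.31 at 1, 2, 5 and 8 h. Without PERK it had 25.8 TPM, then 14.6, 13.4, 17.3 and 28.8. In WT it was low at all times of Tg, while in PERK -/- MEFs it was lowest at 1 and 2 h and above its control at 8 h. The WT log2 changes by TPM were -1.07, -1.35, -1.06 and -1.17, and in counts -0.83 (-1.21 to -0.46), -1.37 (-1.92 to -0.87), -0.90 (-1.22 to -0.59) and -1.01 (-1.26 to -0.76). The 2-fold call at 1 and 5 h was thus lost in counts. The PERK -/- changes in counts were -0.83 (-1.05 to -0.61), -0.84 (-1.04 to -0.64), -0.54 (-0.76 to -0.31) and 0.14 (-0.07 to 0.34). The genotypes differed by 0.00 (-0.43 to 0.42), 0.53 (-0.01 to 1.08), 0.36 (-0.01 to 0.74) and 1.14 (0.83 to 1.46) in time order. It stood clear of counting error at 8 h only. NIH3T3 cells had 4.14, 1.85 and 0.82 TPM from 108, 12 and 11 counts, with log2 changes in counts of -1.06 (-2.05 to -0.19) and -2.35 (-3.39 to -1.45). Because the floor of 4 TPM lay next to the control value, these changes were -0.05 by the called measure.

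The balance of the sensors moved apart in MEFs and NIH3T3 cells. Stim1 held 53.1% of the summed STIM level in the WT control and 63.7, 72.7, 66.5 and 70.5% at 1, 2, 5 and 8 h. In PERK -/- MEFs the share was 57.4% untreated, 87.6% at 5 h and 84.4% at 8 h. In NIH3T3 cells it was 27.6% in the control and 9.17% at 7 h, the opposite direction. Their sum in WT MEFs came to 35.2 TPM untreated and 10.1 to 14.0 TPM with Tg.

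**Figure D3:**
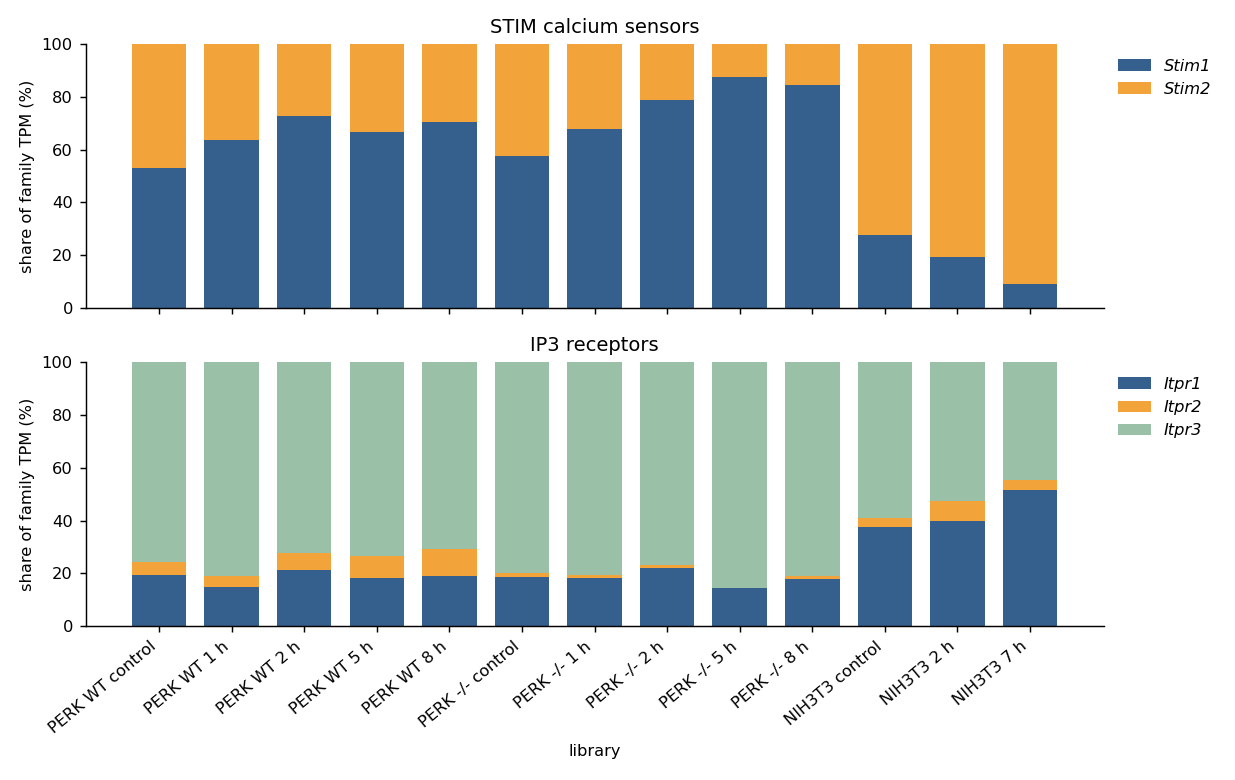
Share of the summed family TPM (%, from 0 to 100) in each of the 13 libraries, for Stim1 and Stim2 above and for the 3 IP3 receptors below. Stim1 goes from 53.1% in the WT control to 70.5% at 8 h and from 27.6% in the NIH3T3 control to 9.17% at 7 h, and Itpr3 is the largest part in all MEF libraries.

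Orai1 (chr5:123015074-123030452) encodes the pore of the store-operated channel. WT MEFs had 19.3, 22.9, 17.0, 27.4 and 30.1 TPM at control, 1, 2, 5 and 8 h, and PERK -/- MEFs had 25.9, 18.8, 15.8, 26.4 and 40.2 TPM. In both genotypes the TPM level was lowest at 2 h and highest at 8 h, and the ranges overlapped. Counting error does not settle that order in WT. There the 2 h library (29 counts) was at -0.04 (-0.67 to 0.55) against the control, and 8 h minus 5 h was 0.03 (-0.32 to 0.39). In PERK -/- MEFs, 2 h minus 1 h was -0.18 (-0.55 to 0.18). The WT log2 changes in counts were 0.59 (0.21 to 0.97) and 0.62 (0.30 to 0.94) at 5 and 8 h, the latter 1.56-fold by TPM and so under the 2-fold limit. By TPM they were 0.50 and 0.64, and with the GC trend removed 0.08 and 0.16. The PERK -/- changes were -0.65 (-1.03 to -0.26), -0.83 (-1.19 to -0.47), -0.24 (-0.62 to 0.14) and 0.36 (0.01 to 0.71) in time order, the third being 0.03 by TPM. PERK -/- minus WT was -1.02 (-1.60 to -0.43), -0.79 (-1.47 to -0.12), -0.84 (-1.36 to -0.32) and -0.26 (-0.72 to 0.20) in time order. NIH3T3 cells had 17.0, 15.1 and 18.2 TPM, and both intervals in counts held 0. The ratio of Orai1 to the summed STIM level was 0.549 in the WT control and 2.55 at 8 h. It was 0.575 and 1.18 in PERK -/- MEFs, and 1.13 in the control and 2.04 at 7 h in NIH3T3 cells.

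**Figure D4:**
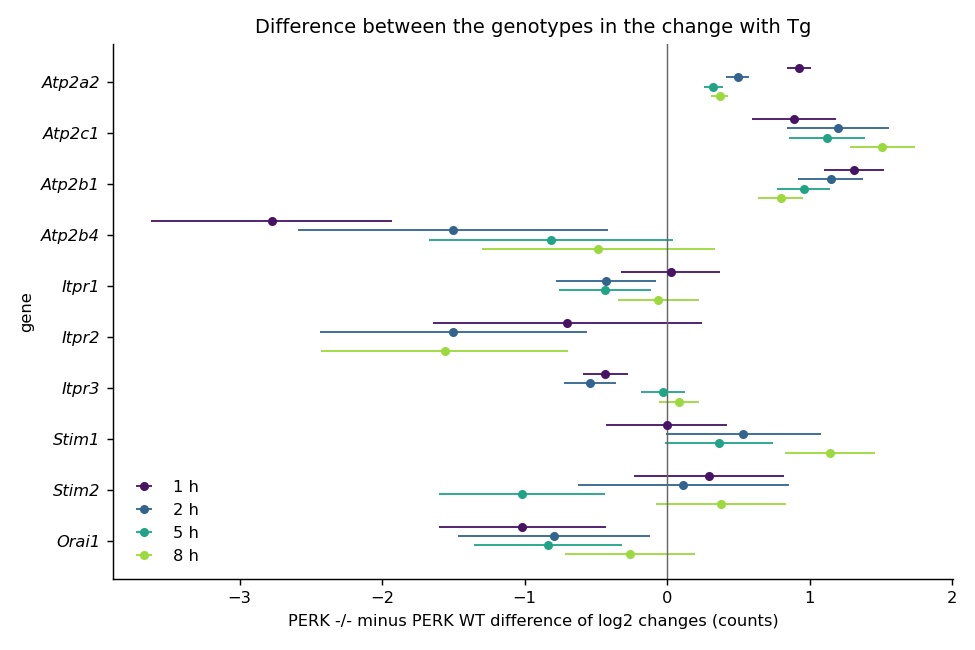
Difference between PERK -/- and WT MEFs in the log2 change of counts with Tg (horizontal axis) for each gene at 1, 2, 5 and 8 h, with 95% intervals from the 4 counts behind each value. Atp2a2, Atp2c1 and Atp2b1 lie to the right of 0 at all 4 times (0.32 to 1.51), Stim2 lies across 0 at all times but 5 h, and Itpr2 at 5 h (1 count) is not drawn.

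Over the 9 expressed genes, the WT changes had medians of -0.86, -0.40, -0.14 and -0.17 on the log2 scale in time order, where all expressed genes had medians of 0 to 0.01. The PERK -/- medians were -0.24, -0.41, -0.14 and 0.14, beside -0.06, -0.11, 0 and 0.04 for all expressed genes. Those of NIH3T3 cells were -0.49 and -0.10, beside -0.13 and 0. With the expression limit at a mean of 5 TPM, which leaves out Atp2b4 and Itpr1 in MEFs, the WT medians were -1.07, -1.20, -1.06 and -1.07, so the smaller medians at 5 and 8 h rest on which weakly expressed genes are kept. With the GC trend removed the medians at 5 and 8 h were -0.33 and -0.44. The NIH3T3 median at 7 h ranged from -0.42 (floor of 1 TPM) to 0 (DESeq2 size factors). In WT, Atp2c1, Atp2b1, Stim1 and Stim2 were the lower part of the group at each time.

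The promoters of the sensor genes are shown because both genes were lower after Tg in WT MEFs. They run from 250 bases before to 50 bases after a RefSeq start (GRCm38.p6, plus strand), with a CCAAT box on either strand in capitals. The Stim1 window lies inside the gene bounds given above and not at its outer start.
Stim1, chr7:102267569-102267868: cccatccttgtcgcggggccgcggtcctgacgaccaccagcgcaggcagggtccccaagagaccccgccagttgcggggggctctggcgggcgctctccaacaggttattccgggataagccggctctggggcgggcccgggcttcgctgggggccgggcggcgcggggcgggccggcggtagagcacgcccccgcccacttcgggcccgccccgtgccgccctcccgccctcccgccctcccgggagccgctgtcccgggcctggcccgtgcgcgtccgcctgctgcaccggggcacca
Stim2, chr5:53998273-53998572: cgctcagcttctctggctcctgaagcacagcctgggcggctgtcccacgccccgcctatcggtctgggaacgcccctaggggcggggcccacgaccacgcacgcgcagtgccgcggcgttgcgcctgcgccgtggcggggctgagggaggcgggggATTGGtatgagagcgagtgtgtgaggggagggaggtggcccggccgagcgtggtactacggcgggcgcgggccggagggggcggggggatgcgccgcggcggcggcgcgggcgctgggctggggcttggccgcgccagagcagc
The RefSeq table held 10 promoters for 8 of the 10 genes, with Atp2a2 and Itpr1 the exceptions. CCAAT occurred in promoters of Stim2 (as ATTGG), Orai1 and Itpr2, and in 37.4% of all 32544 promoters of this length. The GC box GGGCGG occurred in 8 of the 10 promoters and in 35.9% of all. None of the 10 held the ER stress element, CCAAT and CCACG with 9 bases between them (0.12% of all promoters), the UPR element TGACGTGG (0.682%), the CARE TGATGNAA (3.91%) or the NFAT core TGGAAAA (6.71%), searched on both strands. CCAAT is part of the ER stress element, and these matches describe letters in a window only. For Stim1, Atp2b4 and Itpr3 the window lay wholly inside the gene bounds, so promoters at their outer starts were not searched.

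Other genes of calcium handling were counted from lists by the same 2-fold rule at 1 or more times, to be read beside the backgrounds of 10.7% higher and 6.64% lower in WT, 6.25% and 10.6% in PERK -/- and 10.5% and 9.72% in NIH3T3 cells. Of the 8 expressed genes of ER calcium release and leak, 0 were higher and 2 lower in WT, and 1 was lower in PERK -/- MEFs. Erp44, which binds IP3 receptors from the lumen, had 161 TPM in the WT control and 59.4 to 76.7 TPM after Tg, against 182 and 133 to 187 TPM in PERK -/- MEFs. Tmco1, a channel of the ER leak, had 253 TPM and, at 8 h, 103 TPM in WT, against 274 and 286 TPM in PERK -/- MEFs. These WT libraries lay below the PERK -/- ones after Tg, as those of Atp2c1 and Atp2b1 did. The share of all expressed genes for which this holds was not counted. Grina, an ER membrane protein of the TMBIM family, was at least 2-fold lower in PERK -/- MEFs at 2 h (50.3 against 121 TPM).

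Among 7 expressed partners of store entry, 1 was higher in WT (Orai3, a relative of Orai1, at 2.38 TPM in the control and 7.01 to 10.6 TPM after Tg, from 24 and from 19 to 81 counts) and 1 in PERK -/- MEFs (Tmem110, a STIM activator at ER and plasma membrane contacts, at 13.1 TPM and 26.4 TPM at 8 h). Orai3 is outside the rule for named genes and is given because it was the only WT call of its list. Of 5 expressed partners in the plasma membrane and Golgi, 0 were called in MEFs, and Tmem165, a Golgi ion transporter, was lower in NIH3T3 cells (106 TPM in the control and 35.0 at 7 h). No other calcium pump gene of the list of 5 was expressed in any of the cells. Sln and the other SERCA regulators of the list had no row in the tables.

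The 11 expressed genes of calcium binding in the ER lumen split in direction. Hspa5 (BiP), the main ER chaperone, had 1357 TPM in the WT control and 2624, 4462, 7253 and 7149 TPM after Tg, and in PERK -/- MEFs 1646 TPM and then 1975, 2515, 3890 and 4376 TPM. It was the 1 gene of the list at least 2-fold higher in either genotype, and it was higher in all 8 Tg libraries of the MEFs than in their controls. In WT, 2 were lower, Canx and Nucb2, the latter at 71.0 TPM in the control and 29.5 TPM at 2 h. In NIH3T3 cells 3 were higher and 1, Rcn2, was lower (86.5 TPM in the control and 40.3 at 7 h).

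Of 12 expressed genes of mitochondrial calcium uptake, the only MEF call was Mcu, the pore of the uniporter, which was lower in WT at 1 h (32.8 and 16.2 TPM). In NIH3T3 cells Micu3 and Mcur1, which regulate it, were higher at 7 h, Micu3 at the edge of the limit (log2 change 1.02 by TPM and 0.99 in counts). Of 9 expressed genes that make or remove IP3, 3 were higher and 1 lower in WT, and 1 was lower in PERK -/- MEFs. Plcd3, a phospholipase C, had 5.45 TPM in the WT control and 12.1 to 15.9 TPM after Tg, but 10.7 TPM in the PERK -/- control and 4.88 TPM at 2 h. The IP3 kinase gene Itpkb reached 20.9 TPM at 2 h from 9.27 TPM in WT, but its log2 change was 0.64 in counts (0.22 to 1.05), under 2-fold, and Plcg1 was lower in NIH3T3 cells at 7 h (12.4 and 5.62 TPM).

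Of 12 expressed genes of calmodulin, calcineurin and NFAT, 2 were higher and 2 lower in WT, and 1 was higher in PERK -/- MEFs. Rcan1, a calcineurin inhibitor whose transcription NFAT raises, had 22.6 TPM in the WT control and 157, 168, 103 and 99.5 TPM after Tg. In PERK -/- MEFs it had 31.1 TPM and then 248, 169, 42.6 and 39.6 TPM, and in NIH3T3 cells 31.9, 136 and 117 TPM. It was the only gene of the list at least 2-fold higher in all 3 kinds of cells, and in PERK -/- MEFs its level was within 2-fold of the control again at 5 and 8 h, while in WT it was not. Nfatc1, a calcium-regulated transcription factor, had 4.71 TPM in the WT control and 8.44 to 15.0 TPM after Tg. Ppp3ca, the catalytic calcineurin subunit, was lower in WT at 1 h (34.03 and 15.2 TPM).

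The 5 genes whose log2 level over the 10 MEF libraries was most like that of Atp2a2, out of 5992 genes with a mean of at least 16 TPM, were Csnk2b (Pearson's r 0.92), Slc38a1 (0.91), Ide (0.90), Prkacb (0.90) and Igfbp4 (0.90). The libraries share their 2 controls and genotypes, so r is a description. Because the 5 were picked for likeness over these libraries, a lowest WT value at 1 h, as in Atp2a2, follows largely from the choice. Each of the 5 had it, with Igfbp4 at 21.6 TPM in the control and 11.3 TPM at 1 h. In NIH3T3 cells at 2 h, where Atp2a2 had a log2 change of -0.57, Csnk2b, Slc38a1, Ide and Prkacb were at -0.18, -0.41, -0.59 and -0.38 and Igfbp4 at 0.02. Among the 9 expressed genes themselves, the pairs with the highest r were Atp2c1 with Stim1 (0.94), Atp2c1 with Atp2b1 (0.93) and Atp2b1 with Stim1 (0.84), while Atp2a2 and Stim2 were at 0.00.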

How the data were processed

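Ribosome footprints of 13 libraries, 1 per condition, were used. Reads of 22 to 34 nt had been kept by the authors, who discarded those of rRNA and tRNA (STAR) and mapped what was left with Bowtie2 to coding sequences from RefSeq (mm10). The ends of these sequences, 30 nt on either side, and transcripts shorter than 100 nt had been dropped. RSEM gave both tables (versions not given in the sources used here). The deposited expected counts are whole numbers for each gene, unscaled. The deposited TPM values were scaled by RSEM within a library, so they carry no absolute amount of translation. Cycloheximide was left out of cells and buffers, per the labels.

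The 10 genes, the pathway lists and the alternatives were chosen with earlier results of these data known. Besides the 10, the named genes were Eif2ak3, up to 3 per list with the largest 2-fold or larger change and at least 100 expected counts in either library, and the 5 most like Atp2a2; Orai3, Canx and the fibroblast markers were named after their values were seen. Low values, the 2-fold rule and the intervals are described where first used; the interval of a difference between genotypes is a normal one from 4 counts. Also tried were counts per library total, other expression limits, a floor of 1 TPM, a pseudocount of 1, TMM factors, DESeq2 size factors, removal of a lowess trend on GC content, and 1.5- and 3-fold limits. The calculation was tested on simulated data.

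TMM factors came from edgeR 4.0.16 and size factors from DESeq2 1.42.0 in R 4.3.3. Everything else ran in Python 3.11.15 with scipy 1.17.1, numpy 2.4.6, statsmodels 0.14.6, pandas 2.3.3 and, for figures, matplotlib 3.10.9. Coding sequences came from GENCODE M21, and gene positions and promoters from RefSeq, both of GRCm38, the assembly of mm10. GC content was known for 96.1% of the expressed genes in MEFs and 95.7% in NIH3T3 cells.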

Additional observations from a re-analysis of the deposited data

Results flagged for a closer look

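The Itpr2 values had opposite signs in the genotypes. In counts, its median log2 change over the 4 times was 0.68 in WT, above 0 in 4 of 4 libraries, and -0.78 in PERK -/- MEFs, below 0 in 4 of 4 libraries. The counting intervals held 0 at 1 and 2 h in WT and at 1 and 8 h in PERK -/- MEFs. The 4 changes of a genotype share 1 control library, so their common sign is not agreement between replicates. Opposite signs were looked for in every gene of the group and between each pair of the cell kinds. The share of all genes with such signs was not counted. The difference between the genotypes was not tested, and the PERK -/- values rest on 1 to 30 counts per library.

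Atp2b4 had opposite signs in WT MEFs, with a median log2 change of 1.21 in counts, and in NIH3T3 cells, with a median of -0.43. All 4 WT values were above 0 and both NIH3T3 values below it, but the intervals at 2 h held 0 in both, and by TPM with the floor the WT changes were all 0. Here too all changes of a cell kind share 1 control library, with 24 counts in WT MEFs, so a common sign is not agreement between replicates. The difference was not tested, the WT MEF values rest on 11 to 39 counts, and the doses of Tg differed.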

How the results depend on the processing

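No paired analysis was possible because each condition was 1 library and the comparisons come from no test, and for the same reason no replicate could be left out. Over 8 other ways of processing the values, the 90 changes of the 9 expressed genes (Itpr2 had none by TPM) were recomputed 698 times, of which 638 stayed within the half-width of the counting interval, 60 moved further, and 0 of the called changes changed sign. A sign changed 13 times, only for changes of at most 0.17 on the log2 scale, and a 2-fold call was lost 6 times. The lost calls were Atp2c1 at 1 h and Atp2b1 at 8 h with the GC trend removed, and Stim1 at 1 and 5 h with a pseudocount and with counts, all in WT.

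The number of genes at least 2-fold lower at all times in WT was 4, but 3 with counts and with a pseudocount, 2 with the GC trend removed and 1, Stim2, at a 3-fold limit. At all times, Stim2 alone was lower in PERK -/- MEFs under these alternatives, with 0 genes at 3-fold. In NIH3T3 cells 2 were lower at both times with a floor of 1 TPM and with counts, and 0 at 3-fold. At 1 or more times, the number lower in WT was 4 under each of the 8 alternatives and 1 at a 3-fold limit. The number higher in WT was 0, but 1 (Atp2b4) with a floor of 1 TPM, with a pseudocount and with counts per library total, and 1 (Orai1) at a 1.5-fold limit. In PERK -/- MEFs, at 1.5-fold, 4 genes were lower in place of 1 and 1 was higher in place of 0. In NIH3T3 cells, where 1 gene was lower at 1 or more times, 2 were lower with a floor of 1 TPM, with a pseudocount and with counts, 3 at 1.5-fold and 0 at 3-fold. Without the WT library at 2 h, the shallowest, 4 genes were lower at all other times in WT, and without the PERK -/- library at 5 h, 1 was lower at all other times there, both added after seeing the data, as were the other recounts at all times. The main measure put the median of all expressed genes at -0.11 in PERK -/- MEFs at 2 h and -0.13 in NIH3T3 cells at 2 h. TMM factors put the former at 0. Depth limits Itpr2, Atp2b4 and, in NIH3T3 cells, Stim1, which were measured on few counts in some libraries.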
